A study of Rattus norvegicus with 4 samples.

Results

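The constitutive subunits of the proteasome were followed in AA4+ cells of the rat pancreatic lymph node. Members were the genes whose symbol begins with Psma, Psmb, Psmc or Psmd and a digit, on probe sets that carry a single symbol, without the interferon-inducible Psmb8, Psmb9 and Psmb10. The rule used names only and gave 34 genes on 45 probe sets, of 14217 genes on 20826 single-symbol probe sets. Of the 34, 13 encode the 20S core, 17 the 19S cap, 3 (Psmd5, Psmd9, Psmd10) are assembly chaperones of the cap, and Psmc3ip is a recombination factor that shares only the name. Psmb6 was not analysed here and Psma3 rested on 1 probe set, because 2 further sets carry these symbols together with those of near copies.

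The proteasome degrades proteins marked with ubiquitin. Its 20S core is a barrel of stacked rings: outer alpha rings form the gate, and inner beta rings hold the proteolytic sites. The 19S cap binds ubiquitin chains, removes them and threads the protein into the core; its base holds a ring of ATPases and its lid holds the deubiquitinase. Lymphoid and interferon-exposed cells exchange the catalytic beta subunits for Psmb8, Psmb9 and Psmb10, which alters the peptides offered on MHC class I.

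The DRlyp/lyp cells came from BioBreeding rats that the labels call diabetes-prone and that carry lyp, a mutation of Gimap5 known to cause a loss of peripheral T cells, on both chromosomes. The DR+/+ cells came from BioBreeding rats without lyp, called diabetes-resistant. All animals were female and taken at day 65; the titles name the cells DP AA4+ and DR AA4+, and the labels call them mast cells (AA4 is an antibody to a ganglioside of rat mast cells). Each group was 1 RNA pool from 8 animals, amplified and hybridised in duplicate, so n = 2 arrays a group throughout, and each p-value compares 2 pools against the spread between amplifications, with no spread between animals.

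Beside mast cell transcripts, both pools held transcripts of other cell types. The 8 mast cell markers summed to 1116 and 1100 on the DRlyp/lyp arrays and 1112 and 1109 on the DR+/+ arrays, in linear signal units; of the 7 tested 1 was higher and 2 lower, and Kit did not pass the filter on dim probe sets. The 8 T cell markers summed to 6828 and 6960 in DRlyp/lyp against 1254 and 1330 in DR+/+, with 7 of 7 tested higher, and the 10 exocrine pancreas markers to 9062 and 9304 in DRlyp/lyp against 242 and 236 in DR+/+, with 10 of 10 higher. Of 6 macrophage markers 2 were higher and 4 lower (6403 and 6425 in DRlyp/lyp against 9160 and 9758 in DR+/+), of 4 B cell markers 0 were higher and 2 lower (6525 and 6740 in DRlyp/lyp against 8044 and 9013 in DR+/+), and of 9 cell cycle genes 7 were higher and 0 lower (5485 and 5390 in DRlyp/lyp against 3502 and 3735 in DR+/+). The 3′ minus 5′ log2 signal of beta-actin, a measure of cDNA length, was 4.43 and 4.55 in DRlyp/lyp against 3.01 and 3.10 in DR+/+, and that of GAPDH 2.49 and 2.44 in DRlyp/lyp against 1.74 and 1.57 in DR+/+. Apart from the mast cell sum these quantities moved with the groups, and their part in the differences below was not tested. In such bulk RNA, fewer cells of a type and less RNA per cell cannot be told apart.

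Individual proteasome genes moved in both directions between the pools, and most differences were small. All 34 members passed the filter. At an adjusted p under 0.05 (limma, adjusted over 16068 probe sets), 7 had more signal in the DRlyp/lyp pool than in the DR+/+ pool, 10 had less, and 17 were not called. That is 50.0% of members, beside 42.0% of the 9342 genes tested. The share called higher was 20.6% of members and 20.9% of all genes, and the share called lower 29.4% and 21.1%. Most members were bright, and bright sets were called more often. With the filter at the pooled 75th percentile, 56.1% of all probe sets were called, and of 33 members 8 were higher and 11 lower. The median log2 difference, DRlyp/lyp minus DR+/+, was -0.05 over the members and 0.00 over all genes. Of the members, 27 of 34 lay under 0.5 on the log2 scale (63.9% of all genes did), and Psmd6 alone reached 1 (10.3% of all genes did).

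**Figure D1:**
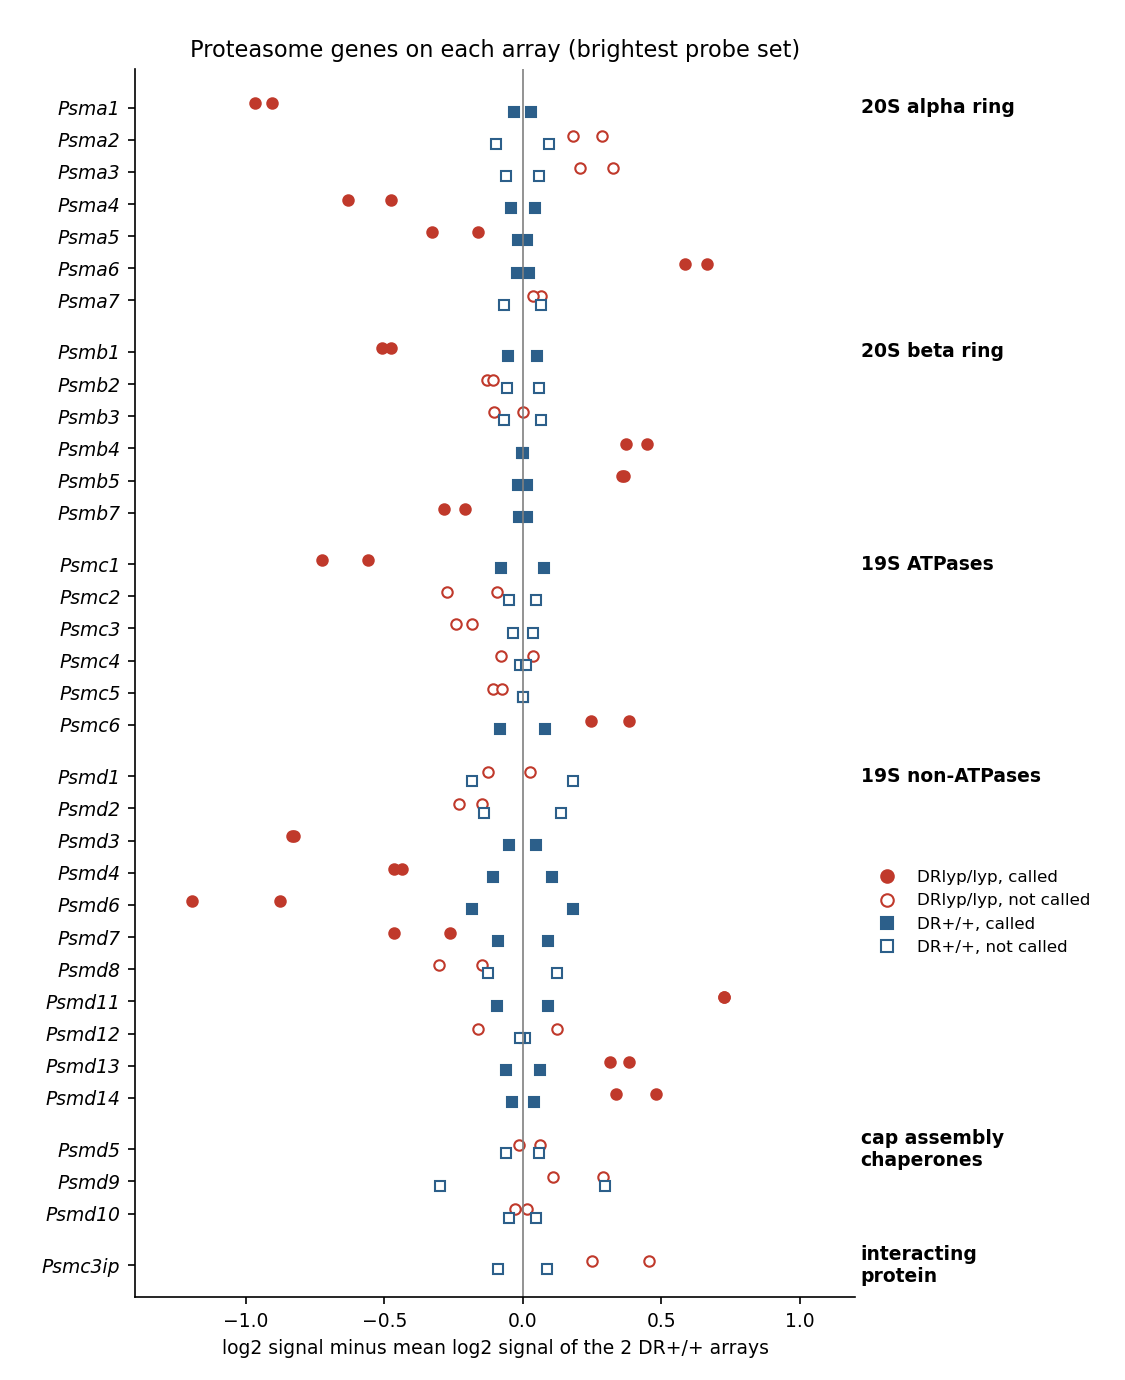
Log2 signal of each proteasome gene on each of the 4 arrays, set against the mean of the 2 DR+/+ arrays (horizontal axis), with DRlyp/lyp arrays as circles and DR+/+ arrays as squares, filled where the difference was called. Filled DRlyp/lyp circles lie on both sides of 0 within most parts, 7 genes to the right and 10 to the left.

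The 20S core and the 19S cap each held calls in both directions on the brightest probe sets. Calls among the 13 core genes were 3 higher and 5 lower (61.5% called), and the core's median difference was -0.05. Calls among the 17 cap genes were 4 higher and 5 lower (52.9% called), and the cap's median difference was -0.18. Over all genes tested 42.0% were called. Called or not, 4 cap genes lay above 0 and 13 below, beside 6 and 7 core genes. Psmc6 and Psmd14, among the 4 higher cap genes, were each called lower on a dimmer set. With the mean of a gene's sets Psmc6 was not called (-0.15) and Psmd14 was lower (-0.49). The medians differed by 0.13, and by -0.01 without DRlyp/lyp replicate 1 or 0.02 without DR+/+ replicate 1. With 2 arrays a group no exact permutation test of this gap can go below p = 0.333 (two-sided), so a difference between core and cap was not shown.

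Summed over its 13 genes, core signal was 22574 and 22631 on the DRlyp/lyp arrays against 20307 and 21284 on the DR+/+ arrays, and the groups did not overlap. Psma6 and Psmb4, chosen after their values were seen, set this order. Without them the core summed to 12764 and 12813 on the DRlyp/lyp arrays against 13471 and 14349 on the DR+/+ arrays, the opposite order. Cap signal was 12448 and 13327 on the DRlyp/lyp arrays against 13142 and 13293 on the DR+/+ arrays, which overlapped.

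**Figure D2:**
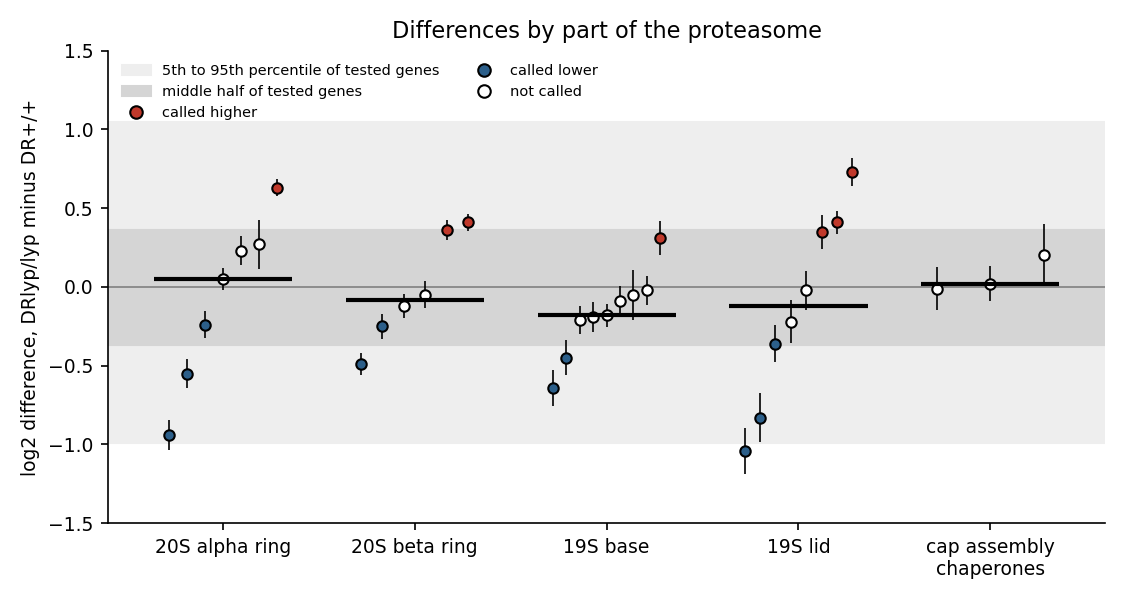
Log2 difference, DRlyp/lyp minus DR+/+, of each gene by part of the proteasome, with bars of 1 standard error, thick lines at the part's median and grey bands for all 9342 genes tested. On the brightest probe sets called genes stand on both sides of 0 in the alpha ring, beta ring and lid, while the 3 assembly chaperones stay uncalled near 0. In the base Psmc6 alone lies above 0, and its direction depended on the probe set.

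The promoters of the members with the largest called difference each way in the core, the base and the lid, among those with an entry in the promoter table, are shown because they let genes of opposite direction be read side by side. Each runs 5′ to 3′ on the gene's strand from 250 bases before to 50 after the RefSeq start, in build GRCr8. Capitals mark CCAAT, the box bound by NF-Y, or TGACNNNGC, the core of the antioxidant response element through which Nfe2l1 (in mammals the factor that restores proteasome genes after proteasome inhibition) and Nfe2l2 act, on either strand. The order is Psma6 (higher) and Psma1 (lower), Psmc6 (higher on its brightest probe set only) and Psmc1 (lower), Psmd11 (higher) and Psmd3 (lower).
Psma6 (chr6:78514097-78514396, plus strand): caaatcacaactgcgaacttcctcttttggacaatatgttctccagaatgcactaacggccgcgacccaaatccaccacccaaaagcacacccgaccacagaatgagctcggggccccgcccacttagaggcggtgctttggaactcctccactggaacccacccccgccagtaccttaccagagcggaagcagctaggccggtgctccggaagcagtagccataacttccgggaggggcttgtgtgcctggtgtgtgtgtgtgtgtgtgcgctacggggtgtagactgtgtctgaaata
Psma1 (chr1:177887808-177888107, minus strand): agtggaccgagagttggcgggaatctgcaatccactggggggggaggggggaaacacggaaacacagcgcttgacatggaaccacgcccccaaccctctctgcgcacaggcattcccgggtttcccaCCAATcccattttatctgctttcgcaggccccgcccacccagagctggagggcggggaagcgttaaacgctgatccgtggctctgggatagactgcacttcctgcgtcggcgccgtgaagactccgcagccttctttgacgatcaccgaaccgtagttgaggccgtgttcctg
Psmc6 (chr15:21022064-21022363, plus strand): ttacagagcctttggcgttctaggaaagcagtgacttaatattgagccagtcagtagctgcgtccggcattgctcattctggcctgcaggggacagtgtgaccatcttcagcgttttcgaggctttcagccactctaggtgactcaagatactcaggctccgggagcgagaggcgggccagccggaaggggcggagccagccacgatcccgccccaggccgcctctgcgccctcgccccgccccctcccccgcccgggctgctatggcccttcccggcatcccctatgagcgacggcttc
Psmc1 (chr6:125122247-125122546, plus strand): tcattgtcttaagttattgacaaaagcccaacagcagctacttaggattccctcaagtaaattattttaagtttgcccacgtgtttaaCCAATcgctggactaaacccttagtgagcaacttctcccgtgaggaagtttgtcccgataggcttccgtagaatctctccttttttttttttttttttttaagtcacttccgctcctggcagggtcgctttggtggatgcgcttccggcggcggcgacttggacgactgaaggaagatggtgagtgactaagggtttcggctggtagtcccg
Psmd11 (chr10:65932093-65932392, plus strand): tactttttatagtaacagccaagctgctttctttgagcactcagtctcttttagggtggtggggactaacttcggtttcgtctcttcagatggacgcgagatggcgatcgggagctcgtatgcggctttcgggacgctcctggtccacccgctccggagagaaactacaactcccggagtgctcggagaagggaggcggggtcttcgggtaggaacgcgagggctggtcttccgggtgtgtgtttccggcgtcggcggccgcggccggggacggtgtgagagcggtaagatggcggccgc
Psmd3 (chr10:84139688-84139987, plus strand): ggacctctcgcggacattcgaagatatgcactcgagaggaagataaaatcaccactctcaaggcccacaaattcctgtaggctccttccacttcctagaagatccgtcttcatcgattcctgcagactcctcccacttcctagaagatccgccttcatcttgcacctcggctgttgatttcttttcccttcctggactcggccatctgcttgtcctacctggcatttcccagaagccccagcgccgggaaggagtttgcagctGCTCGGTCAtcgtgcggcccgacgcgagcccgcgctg

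Psma1 and Psmc1, both lower, hold a CCAAT that begins at -123 and at -162 from the start, and Psma6 and Psmd11, both higher, hold neither motif in this window. Psmc6 holds neither as well; it was higher on its brightest probe set (0.31) and lower on its dimmest (-0.82, adjusted p = 0.0135), so it is no clear example of either direction. Psmd3 holds TGACNNNGC in the reverse direction, at 13 bases after the start, and no CCAAT. Promoters were found for 30 members; Psmd6, Psmd12, Psmd14 and Psma7 had no entry. CCAAT on either strand was present in 17 of the 30 (56.7%), beside 37.5% of 33469 promoters of the same length. By call, it was in 8 of 9 members that were lower, 1 of 6 that were higher and 8 of 15 that were not called. By part, CCAAT was in 9 of 12 core promoters and 5 of 14 cap promoters. In the core the lower Psma1, Psma4, Psma5, Psmb1 and Psmb7 held it, and so did the uncalled Psma2, Psma3, Psmb2 and Psmb3. It thus did not separate lower from uncalled genes there. These counts rest on calls that were not all stable. Without an intensity trend in the variance model, the lower Psma5, Psmb7, Psmd4 and Psmd7 and the higher Psmd13, all with CCAAT, were not called. The lower Psma1, Psma4, Psmb1 and Psmc1, also with CCAAT, kept their calls there. In counts added after the data were seen, CCAAT was in 1 of 5 higher members with Psmc6 left out, and in 8 of 10 lower members with Psmc6 counted as lower. Among the 7887 tested genes with a promoter, the shares were 40.9% of lower, 36.7% of higher and 38.8% of uncalled genes. TGACNNNGC was present in 6 of 30 member promoters, beside 12.1% of all, and in 1 of 9 lower and 1 of 6 higher members. The motifs share a base in the Psmb2 promoter. These are matches of letters and no binding was measured.

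In the alpha ring, whose subunits form the gate of the core, 1 gene was higher and 3 lower (57.1% called, beside 42.0% of all genes). Psma6 read 4869 and 4606 on the DRlyp/lyp arrays against 3020 and 3114 on the DR+/+ arrays, with no overlap (log2 difference 0.63 ± 0.055 (SE), adjusted p = 6.23e-06, limma). Psma1 read 500.6 and 480.4 on the DRlyp/lyp arrays against 918 and 960 on the DR+/+ arrays, a 1.91-fold lower signal (-0.94 ± 0.094, adjusted p = 1.69e-05). These subunits of a single ring thus went in opposite directions, and both calls held under all 13 alternative settings. Both genes rest on 1 probe set each, so averaging a gene's sets, 1 of the 13, could not change their direction. Psma4 was lower at 701 and 780.0 in DRlyp/lyp against 1052 and 1117 in DR+/+ (-0.55, adjusted p = 0.000582). Psma5 was lower by less, at 958 and 1076 in DRlyp/lyp against 1188 and 1217 in DR+/+ (-0.24, adjusted p = 0.0395). The Psma5 call was lost when any 1 of the 4 arrays was left out (adjusted p from 0.059 to 0.325).

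The other alpha genes were not called. Psma7 overlapped between groups (1878 and 1844 in DRlyp/lyp against 1714 and 1881 in DR+/+, adjusted p = 0.604). The arrays did not overlap for Psma2, at 1089 and 1171 in DRlyp/lyp against 900 and 1027 in DR+/+ (0.23, adjusted p = 0.0618), or for Psma3, at 215 and 198 in DRlyp/lyp against 164 and 179 in DR+/+ (0.27, adjusted p = 0.206), yet neither passed the threshold. Psma2 passed it without DR+/+ replicate 2 (0.33, adjusted p = 0.0251).

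In the beta ring 2 genes were higher and 2 lower (66.7% called, beside 42.0% of all genes). Psmb5, which carries the chymotrypsin-like site, read 2374 and 2358 on the DRlyp/lyp arrays against 1820.2 and 1861 on the DR+/+ arrays (0.36 ± 0.063, adjusted p = 0.000839). Psmb7, which carries the trypsin-like site, went the other way, at 1091 and 1036 in DRlyp/lyp against 1248 and 1272 in DR+/+ (-0.25 ± 0.078, adjusted p = 0.0267). Psmb7 missed the threshold when DRlyp/lyp replicate 1, DRlyp/lyp replicate 2 or DR+/+ replicate 2 was dropped (adjusted p = 0.0929, 0.193 and 0.0688 in that order). Among the subunits without an active site, Psmb4 was higher at 4940.3 and 5212 in DRlyp/lyp against 3816 and 3821 in DR+/+ (0.41, adjusted p = 9.21e-05) and Psmb1 lower at 1420.1 and 1387 in DRlyp/lyp against 1903 and 2046 in DR+/+ (-0.49, adjusted p = 0.000241). The arrays of each pool lay close together for both genes, well apart from those of the other pool. Psmb2 was not called, at 1442 and 1466 in DRlyp/lyp against 1517 and 1642 in DR+/+ (adjusted p = 0.228), and Psmb3 overlapped, at 1096 and 1018 in DRlyp/lyp against 1046 and 1146 in DR+/+ (adjusted p = 0.667).

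Of the inducible subunits, Psmb10 was lower like Psmb7, while Psmb8 was not called beside the higher Psmb5. Psmb6 was not analysed, so Psmb9 has no constitutive counterpart here. Psmb8, which replaces Psmb5, read 2706 and 2819 in DRlyp/lyp against 2731 and 2540.5 in DR+/+ (0.07, adjusted p = 0.419). Psmb10, which replaces Psmb7, was lower at 869 and 954 in DRlyp/lyp against 1423 and 1600.1 in DR+/+ (-0.73, adjusted p = 6.64e-05), and Psmb9 was lower at 1995 and 2072 in DRlyp/lyp against 3015 and 3145 in DR+/+ (-0.60, adjusted p = 1.93e-05). Lower signal therefore stood with Psmb7, Psmb9 and Psmb10, higher signal with Psmb5, and Psmb8 was not called. Not all of these calls were stable: that of Psmb7 was kept under 8 of the 13 alternatives and that of Psmb5 under 11. The Psmb10 call was lost without a filter.

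**Figure D3:**
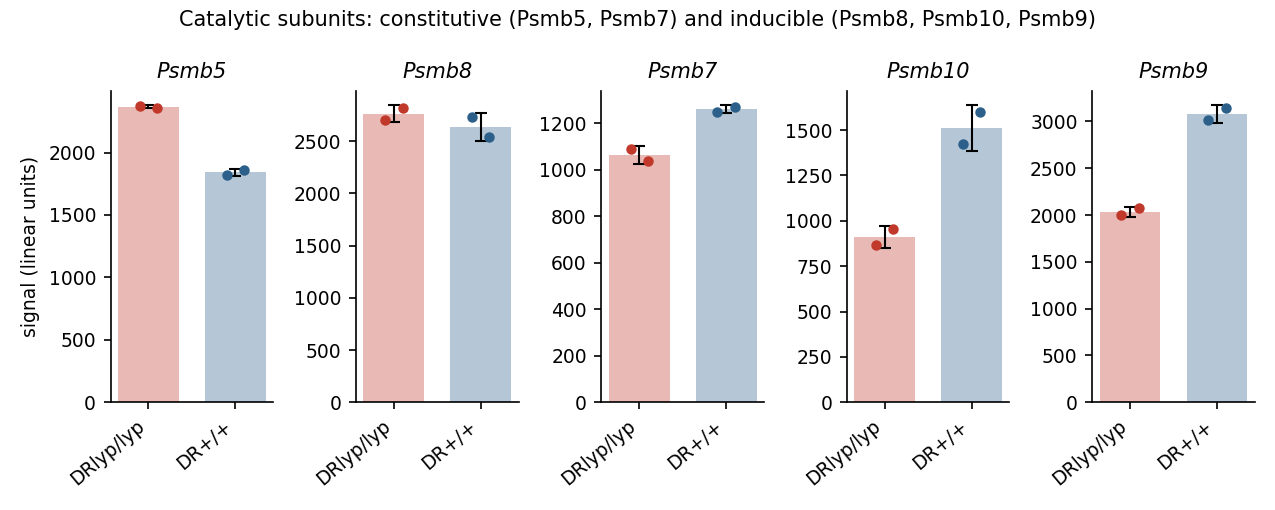
Signal in linear units (vertical axes, each from 0) of constitutive Psmb5 and Psmb7 and inducible Psmb8, Psmb10 and Psmb9, as bars of the mean of 2 arrays, SD and single arrays. Psmb5 is higher in the DRlyp/lyp pool, Psmb7, Psmb10 and Psmb9 lower, and Psmb8 overlaps between pools.

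In the cap's base, which takes up and unfolds substrates, 1 of 9 genes was higher and 2 were lower. That is 33.3% called, beside 42.0% of all genes tested. Among the 6 ATPases, Psmc1 was lower at 362 and 406 on the DRlyp/lyp arrays against 568 and 632 on the DR+/+ arrays (-0.64 ± 0.115, adjusted p = 0.00101). In yeast the corresponding ATPase takes part in opening the gate of the core. Psmc6 was higher at 619 and 680.2 in DRlyp/lyp against 493 and 551 in DR+/+ (0.31 ± 0.107, adjusted p = 0.0355), and its other probe sets differ, as given below. Psmc6 missed the threshold when DRlyp/lyp replicate 1, DRlyp/lyp replicate 2 or DR+/+ replicate 1 was dropped (adjusted p = 0.1, 0.273 and 0.129 in that order) and with arrays centred on their medians (0.252). Neither ATPase difference exceeded 1.56-fold.

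The remaining ATPases were not called. Psmc2, at 2048 and 2324 in DRlyp/lyp against 2559 and 2395 in DR+/+ (-0.18, adjusted p = 0.0698), and Psmc3, at 841 and 809 in DRlyp/lyp against 933 and 980 in DR+/+ (-0.21, adjusted p = 0.0692), lay just outside the threshold and had no overlap between groups. Psmc2 passed it without DRlyp/lyp replicate 2 (-0.27, adjusted p = 0.0498), and both passed it with arrays centred on their medians (adjusted p = 0.0293 and 0.0307). Psmc5 read 627 and 642 in DRlyp/lyp against 677 and 676 in DR+/+ (adjusted p = 0.468). Psmc4 overlapped, at 777 and 718 in DRlyp/lyp against 752 and 764 in DR+/+ (adjusted p = 0.881).

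Of the base subunits that are not ATPases, Psmd4, a receptor for ubiquitin chains, was lower at 461 and 469.8 in DRlyp/lyp against 591 and 684 in DR+/+ (-0.45, adjusted p = 0.0067). Psmd4 missed the threshold when DRlyp/lyp replicate 1 or DRlyp/lyp replicate 2 was dropped (adjusted p = 0.074 and 0.0571 in that order). The scaffold subunits Psmd1 (227 and 252 in DRlyp/lyp against 281 and 218 in DR+/+, adjusted p = 0.832) and Psmd2 (1035 and 1096 in DRlyp/lyp against 1102 and 1336 in DR+/+, adjusted p = 0.148) were not called. Psmd2 passed the threshold without DR+/+ replicate 1 (-0.33, adjusted p = 0.0217).

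The lid held the largest differences in either direction among the members. Of its 8 genes 3 were higher and 3 lower. Psmd6, a structural subunit, read 279 and 347 on the DRlyp/lyp arrays against 724 and 562 on the DR+/+ arrays, 2.05-fold lower (-1.04 ± 0.147, adjusted p = 0.000212), with visible scatter within each pool but no overlap. Psmd3, another structural subunit, was 1.78-fold lower at 142.1 and 142.7 in DRlyp/lyp against 261 and 245 in DR+/+ (-0.83 ± 0.155, adjusted p = 0.00131), a call that held under all 13 alternatives. Psmd3 also has 1 probe set, so averaging a gene's sets could not change its direction. Psmd11, which clamps the lid to the core, was 1.66-fold higher at 1444 and 1442 in DRlyp/lyp against 818 and 929 in DR+/+ (0.73 ± 0.086, adjusted p = 5.71e-05).

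The remaining lid genes included calls in both directions. Psmd13, a structural subunit, was higher at 574 and 601 in DRlyp/lyp against 442 and 481 in DR+/+ (0.35, adjusted p = 0.0209). It missed the threshold when DRlyp/lyp replicate 1, DRlyp/lyp replicate 2 or DR+/+ replicate 1 was dropped (adjusted p for Psmd13 = 0.107, 0.169 and 0.0665 in that order) and with arrays centred on their medians (0.17). Psmd14, the deubiquitinase that removes chains from substrates, was higher at 1915 and 2119 in DRlyp/lyp against 1559.9 and 1476 in DR+/+ (0.41, adjusted p = 0.00116) on its brightest probe set. Its other sets differed by -1.19 (adjusted p = 6.67e-05, lower) and -0.70, and their mean with the brightest by -0.49 (adjusted p = 0.0117, lower). Psmd7, its partner in a dimer, was lower at 421 and 484 in DRlyp/lyp against 618 and 545 in DR+/+ (-0.36, adjusted p = 0.0274). Psmd7 missed the threshold when DRlyp/lyp replicate 1, DRlyp/lyp replicate 2 or DR+/+ replicate 1 was dropped (adjusted p = 0.254, 0.0589 and 0.127 in that order). Psmd8 (285 and 318 in DRlyp/lyp against 323 and 383 in DR+/+, adjusted p = 0.217) and Psmd12 (391 and 476 in DRlyp/lyp against 439.9 and 434 in DR+/+, adjusted p = 0.920) were not called.

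The chaperones that put the base together were not called. Psmd5 read 487 and 462 in DRlyp/lyp against 448 and 486 in DR+/+ (adjusted p = 0.889), Psmd9 204 and 231 in DRlyp/lyp against 154 and 232 in DR+/+ (adjusted p = 0.456) and Psmd10, also known as gankyrin, 251 and 244 in DRlyp/lyp against 241 and 258 in DR+/+ (adjusted p = 0.976). All 3 overlapped between pools. Psmc3ip, the partner of meiotic recombinases, was dim at 81.5 and 70.7 in DRlyp/lyp against 55.9 and 63.2 in DR+/+ and was not called (adjusted p = 0.296).

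For Psmd14 and Psmc6 the direction depended on the probe set. Among the members 27 genes had 1 set and 7 had several, of which 5 had more than 1 tested. Psmd14 showed the widest split: beside the brightest set, a second read 194 and 169 on the DRlyp/lyp arrays against 443 and 385 on the DR+/+ arrays (-1.19, adjusted p = 6.67e-05) and the dimmest 36.4 and 36.3 in DRlyp/lyp against 55.3 and 62.9 in DR+/+ (-0.70, adjusted p = 0.0851). With the mean of its sets Psmd14 was therefore called lower (-0.49, adjusted p = 0.0117). Psmc6 split in the same way, with further sets at 356 and 463 in DRlyp/lyp against 402 and 374 in DR+/+ (0.07, adjusted p = 0.743) and at 61.5 and 67.8 in DRlyp/lyp against 105 and 124 in DR+/+ (-0.82, adjusted p = 0.0135), and a mean of sets of -0.15 that was not called (adjusted p = 0.416). The direction of Psmd14 and Psmc6 thus cannot be given from these arrays without naming the set.

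Psmd11 kept its direction on its second tested set, at 709.9 and 749 in DRlyp/lyp against 530.0 and 518 in DR+/+ (0.48, adjusted p = 0.00233). Psmd7 had a second set at 179 and 187 in DRlyp/lyp against 206 and 242 in DR+/+ that was not called (-0.29, adjusted p = 0.168; mean of sets, adjusted p = 0.0545). The dimmer Psmd9 set was not called either (adjusted p = 0.959). Psmb5 and Psmc4 had further sets that did not pass the filter, and averaging these in removed the Psmb5 call (0.06, adjusted p = 0.891). Of 7 dimmer tested sets, 4 had the opposite sign to the brightest set of the gene and 2 of these were called. Over all genes, 44.7% of 2749 dimmer sets had the opposite sign and 12.8% were also called. The dimmer set had the lower difference for 6 of 7 sets of members and for 63.7% over all genes, beside the larger 3′ to 5′ difference of the control genes in the DRlyp/lyp pool, whose part was not tested.

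**Figure D4:**
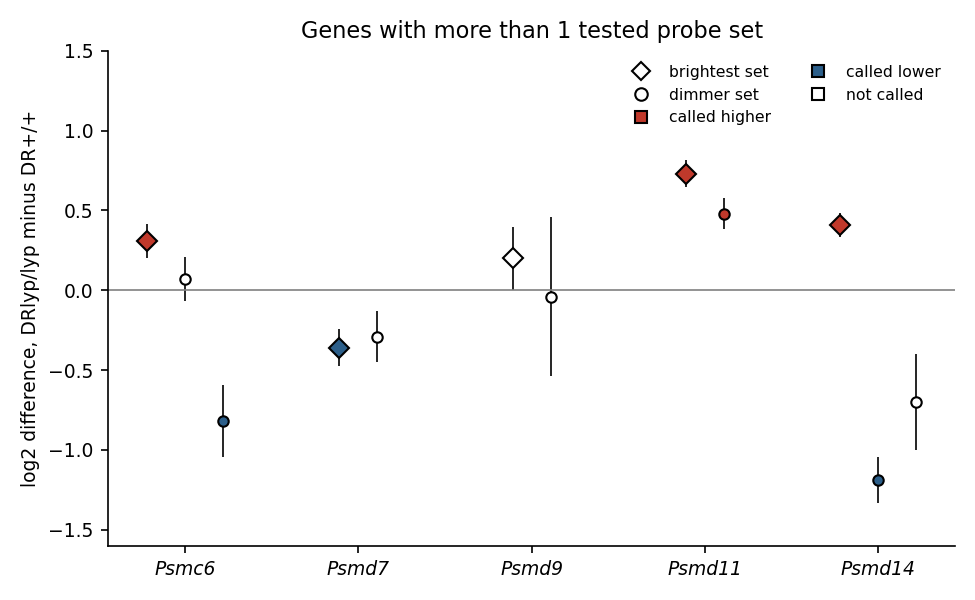
Log2 difference, DRlyp/lyp minus DR+/+, with bars of 1 standard error for every tested probe set of the 5 genes that have more than 1, diamonds for the brightest set. Psmd14 and Psmc6 are called higher on the brightest set and lower on a dimmer one, while both Psmd11 sets are higher.

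Lists of factors that assemble, regulate and feed the proteasome each held genes that were called. Over all 9342 genes tested 42.0% were called (20.9% higher, 21.1% lower), so called genes in a list are no result about that list. Of the 5 assembly factors of the core, 2 were higher and 1 lower. Pomp, which drives beta ring formation, read 1372 and 1402 on the DRlyp/lyp arrays against 986 and 1206 on the DR+/+ arrays (0.35, adjusted p = 0.0135). Psmg1, which starts the alpha ring, read 752 and 798 in DRlyp/lyp against 576 and 566 in DR+/+ (0.44, adjusted p = 0.00327), and Psmg4 was lower at 268 and 235 in DRlyp/lyp against 306 and 354 in DR+/+ (-0.39, adjusted p = 0.0445). Pomp missed the threshold when DRlyp/lyp replicate 1, DRlyp/lyp replicate 2 or DR+/+ replicate 1 was dropped (adjusted p = 0.088, 0.111 and 0.0847 in that order), and Psmg1 when DRlyp/lyp replicate 2 was (0.0642). Centring arrays on their medians also ended the Pomp call (0.139), and quantile normalization that of Psmg4 (0.0674). Psmg4 missed the threshold when DRlyp/lyp replicate 1, DRlyp/lyp replicate 2 or DR+/+ replicate 2 was dropped (0.106, 0.289 and 0.165 in that order).

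Of 4 activator and inhibitor genes tested, 1 was higher and 1 lower. Psme4, the nuclear activator PA200, was higher on its brightest set at 1323 and 1267 in DRlyp/lyp against 858 and 781 in DR+/+ (0.66, adjusted p = 0.000107), with 2 dimmer sets not called. Psme1, a chain of the interferon-inducible activator PA28, was lower at 2178 and 2346 in DRlyp/lyp against 2933 and 2594 in DR+/+ (-0.29, adjusted p = 0.00847), and missed the threshold when DRlyp/lyp replicate 1 or DR+/+ replicate 1 was dropped (0.11 and 0.0788 in that order). Of 9 genes that act at the cap, 4 were higher and 0 lower, among them Txnl1, a thioredoxin-like protein of the cap (2561 and 2712 in DRlyp/lyp against 1592 and 1680.0 in DR+/+, adjusted p = 1.31e-05). The ubiquitin ligases Ube3a (754 and 815 in DRlyp/lyp against 557 and 532 in DR+/+, adjusted p = 0.00125) and Ube3c (451 and 508 in DRlyp/lyp against 368 and 359 in DR+/+, adjusted p = 0.0182) were also higher. Ube3c missed the threshold when DRlyp/lyp replicate 1 or DRlyp/lyp replicate 2 was dropped (adjusted p = 0.0629 and 0.205 in that order) or arrays were centred on their medians (0.124). With the mean of a gene's sets Psme1, Psme4, Txnl1, Ube3a and Ube3c were not called (adjusted p from 0.229 to 0.835). For Psme1 only sets that had not passed the filter were averaged in.

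Of 9 transcription regulators, 1 was higher and 2 lower. Nfe2l2, a stress-responsive activator of antioxidant genes, was lower at 1110 and 1019 in DRlyp/lyp against 1503 and 1560 in DR+/+ (-0.53, adjusted p = 0.000304). Nfya, the DNA-binding subunit of NF-Y, was lower at 121 and 102 in DRlyp/lyp against 225 and 198 in DR+/+ (-0.92, adjusted p = 0.00177). Nfya missed the threshold when its sets were averaged (0.0549), where only sets that had not passed the filter were added. Nfyc, another NF-Y subunit, was higher on its brightest set (1175 and 1102 in DRlyp/lyp against 701 and 792 in DR+/+, adjusted p = 0.000318) and lower on a dimmer one (41.8 and 30.9 in DRlyp/lyp against 92.8 and 85.0 in DR+/+, adjusted p = 0.00354), so its direction was not settled.

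Of 10 shuttle and segregase genes 0 were higher and 2 lower. Rad23b, which carries ubiquitinated proteins to the cap, read 996 and 999 in DRlyp/lyp against 1311 and 1244 in DR+/+ (-0.36, adjusted p = 0.0038). Ubqln1, another shuttle, was lower on its chosen set (-0.35, adjusted p = 0.00857; adjusted p = 0.114 without DRlyp/lyp replicate 1) and higher on its second (0.37, adjusted p = 0.00825). With the mean of sets Rad23b was not called (-0.42, adjusted p = 0.118), and only sets that had not passed the filter were averaged in. Of 8 ubiquitin pathway genes 3 were higher and 1 lower. The conjugating enzyme Ube2n read 259.1 and 259.6 in DRlyp/lyp against 140.4 and 148 in DR+/+ (0.85, adjusted p = 0.00103) and rose on both of its tested sets. The activating enzyme Uba6 (0.74, adjusted p = 7.7e-05) and Ube2l3 (0.56, adjusted p = 0.000896) were higher on their brightest sets, and not called with the mean of sets (adjusted p = 0.415 and 0.134). Ube2d1 was 2.30-fold lower at 116 and 109 in DRlyp/lyp against 325 and 206 in DR+/+ (adjusted p = 0.0009).

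How many members were called depended on the settings of the test. Without a filter on dim probe sets 2 were higher and 2 lower (Psma6 and Psmb5, Psma1 and Psmd3), with 5.38% of all probe sets called, against 39.2% with the filter. Without an intensity trend in the variance model 2 were higher (Psma6 and Psmd11) and 6 lower (Psma1, Psma4, Psmb1, Psmc1, Psmd3 and Psmd6). Psma1, Psma6 and Psmd3 were called the same way under each of the 13 alternatives. Each has 1 probe set, so averaging a gene's sets could not turn them. Quantile normalization reversed no call of a member. Centring each array on its median reversed none either, but shifted the median of all probe sets to -0.12. Relative to that shift the core median was -0.05 and the cap median -0.18, and 35.9% of all calls were then higher, against 49.3% with the deposited scaling.

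**Figure D5:**
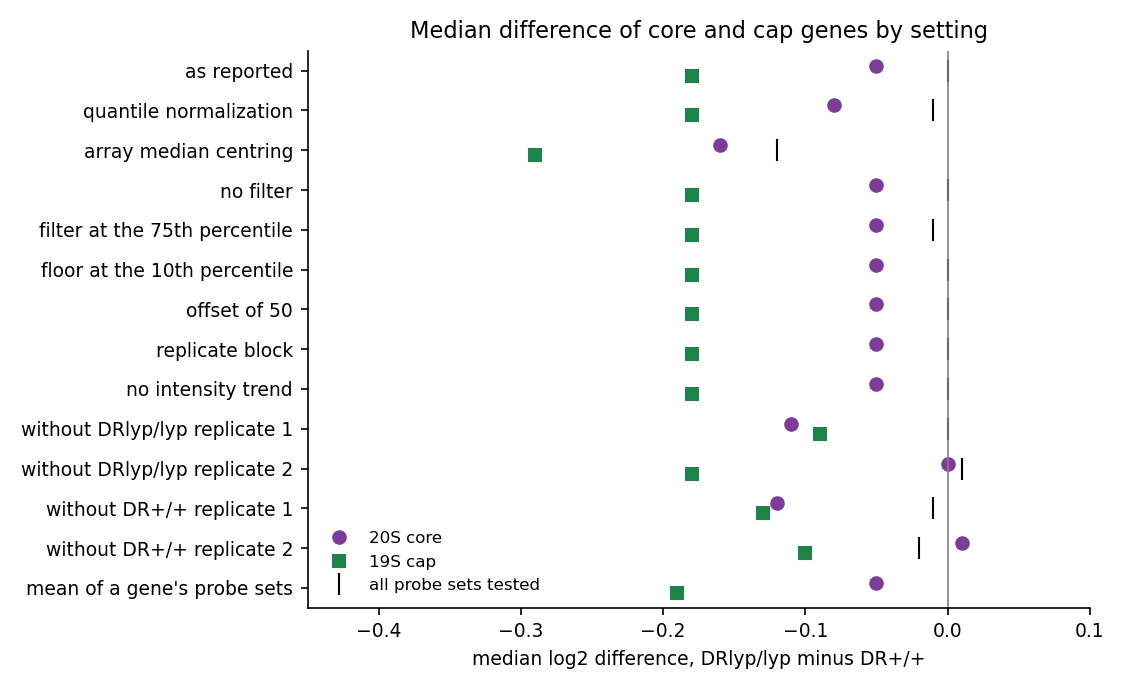
Median log2 difference, DRlyp/lyp minus DR+/+, of 13 core genes (circles), 17 cap genes (squares) and all probe sets tested (ticks) under each setting. The cap median lies between -0.29 and -0.09 and the core median between -0.16 and 0.01, and their order turns without DRlyp/lyp replicate 1.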

How the data were processed

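RNA of AA4+ pancreatic lymph node cells was hybridised to Affymetrix Rat Genome 230 2.0 arrays, about 50 ng per pool amplified in 2 cycles, per the series' design text. The values deposited by the authors are signal intensity on a linear scale, 1 per probe set; which program made them, and how it scaled them, is not given in the sources used here. A 2% trimmed mean of 150.1 was found on each array, so the deposited scaling was kept. Of 31099 probe sets, 57 controls were left out. Intensities below 6.8, the pooled 25th percentile, were set to it before taking log2. Sets brighter than 28.3, the pooled median, on 2 or more of the 4 arrays (16068) entered a two-sided limma test (version 3.58.1, R 4.3.3, eBayes with an intensity trend and Benjamini-Hochberg adjustment). A call is an adjusted p under 0.05. A gene was represented by its set of highest mean log2 signal. No detection calls were used; levels of different genes were not compared; the number of arrays limits the precision. On simulated arrays (16068 sets, 200 changed) 30% of log2 changes of 0.5 and 58% of 1 were recovered, with 6 of 143 calls false. In the data 6302 sets were called, many more than the 200 changed in the simulation. The adjustment depends on the share of changed sets, so these figures do not give the recovery or false calls of the test reported here.

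Groups and replicate numbers came from the titles. Every member was named; pathway genes were named by a rule (up to 3 called each way per list, else the brightest). Symbols came from the platform's annotation, and the Entrez numbers of all 34 members were found in the RefSeq table of GRCr8, with 0 symbols changed. Promoters are RefSeq's, in GRCr8. Members, lists and tests were chosen with earlier results of these data known, and no list was tested as a set. The 13 alternatives were quantile normalization, median centring, no filter or one at the 75th percentile, the 10th percentile as floor, 50 added to each intensity, a replicate block, no trend, averaging a gene's sets and leaving out each array. Python 3.11.15 with matplotlib 3.10.9 drew the figures.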

Additional observations from a re-analysis of the deposited data

How the results depend on the processing

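Of 441 pairs of a member and an alternative, 385 kept their call. Of 17 called members, 3 kept it throughout, each with 1 set that averaging leaves as it was, and 14 changed under at least 1 alternative. Under at least 1 alternative 4 uncalled members were called. Without a filter 1671 probe sets were called in all, against 6302, and 2 members were higher and 2 lower; without an intensity trend 4057 were called, and 2 members were higher and 6 lower. When the sets of a gene were averaged 4 members were higher, Psmc6 differed by -0.15, Psmd14 by -0.49, Nfyc by -0.35 and Ubqln1 by 0.01, each opposite in sign to its brightest set. With median centring the core median was -0.16 and the cap median -0.29, a shift that the scaling itself applies to all probe sets. Leaving out 1 array gave 3478 to 5800 probe sets called, the lowest without DRlyp/lyp replicate 1 and 3767 without DRlyp/lyp replicate 2; 6 to 9 members lower; a cap median from -0.18 to -0.09; and core minus cap from -0.01 to 0.19. Where not stated, the cause was not tested. The lone array left in a group was assumed to vary like the other group. With the replicate number as a replicate block 7044 probe sets, 8 higher and 11 lower members were called; replicate 1 deviations correlated at 0.04 between groups, so the numbers were not taken to pair the arrays. Signal near 28.3 is not shown to be above background, which limits the dimmest sets.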
